A study of Mus musculus with 20 samples.

Results

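Potassium channel genes were examined in RNA-Seq of the preoptic area (POA) of 20 male mice, by level, by class and across 4 groups of mice. A gene was included when its symbol began with Kcn, went on in lower-case letters and ended in a number, and when at least 10 reads were counted on it in each of the 20 mice. Of 92 such symbols in a table of 25239 genes, 77 had at least 10 counts in every mouse, and Kcnj8, Kcnj13 and Kcne2 were left out by name because they mark blood vessel wall cells or choroid plexus. Kcne2 was also under the minimum, so 75 genes were left. Of the 14 other symbols under the minimum, 12 had a median count below 10. The rule used a minimum level, so the levels are given as a description.

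There were 5 mice in each group, and the groups were SS-housed control, OS-housed control, SS-housed dnFGFR and OS-housed dnFGFR mice, written here as control SS, control OS and so on. At weaning on PND20 each male was given 1 partner, either another male (same sex, SS) or a female (opposite sex, OS), and the POA was taken at PND320. OS pairs were free to breed and rear litters, so that the OS groups had a mate and pups as well as a cage mate of the other sex. dnFGFR mice were homozygous for a transgene that encodes a truncated, dominant-negative FGF receptor 1 under a rat GnRH promoter, which directs it to GnRH neurons. GnRH neurons are few among the cells of a POA block, and RNA of the whole block was measured. The dnFGFR mice had homozygous parents, whereas the parents of the controls were siblings heterozygous for the transgene. The study describes the genetic backgrounds as matching, which was not tested here. Control mice were killed in June or July and dnFGFR mice in May, with 1 exception in November (dnFGFR SS mouse 4), which means that effects of genotype and of date cannot be told apart. Housing was not balanced by date either. In each genotype, 2 of the 5 SS mice shared a sacrifice date with OS mice, which were 5 control OS and 4 dnFGFR OS mice.

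Potassium channels let potassium leave the cell and thereby set the resting potential, shape the spike and limit repetitive firing. Voltage-gated (Kv) channels open on depolarization, inward rectifiers (Kir) hold the cell near rest and include channels opened by G proteins or closed by ATP, and tandem-pore (K2P) channels carry background leak. Calcium-activated channels give the afterhyperpolarization, and auxiliary subunits change the gating and surface number of the pore-forming ones. In the POA and hypothalamus, M-type, GIRK, ATP-sensitive and SK channels are known to be regulated by steroids, peptides and transmitters that act on neuroendocrine neurons. By these definitions the 75 genes held 36 Kv, 11 Kir, 9 K2P, 8 calcium-activated (with the related sodium-activated genes) and 11 auxiliary members.

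Counted reads per mouse lay between 32353578 and 39871353. The dissected block was not POA alone by its marker genes. The 11 preoptic and hypothalamic markers were all in the table, 8 of them with at least 10 counts in every mouse, and summed to between 64.5 and 161.9 CPM (counts scaled to a common library size), whereas 9 markers of striatal neurons summed to between 2566 and 5219 CPM. Choroid plexus markers ranged from 37.7 to 2188 CPM. Gnrh1, which encodes the GnRH precursor, ranged from 1.40 to 2.53 CPM in control and from 0.949 to 1.85 CPM in dnFGFR mice. In bulk tissue, fewer cells of a type and less RNA per cell cannot be told apart. Among the potassium channel genes, dnFGFR OS mouse 5 held the highest or lowest value of the 20 mice for 28 genes and dnFGFR OS mouse 2 for 26, against 0 to 18 in the other mice. In dnFGFR OS mouse 5, reads fell on 18416 genes, against 19101 to 19659 in the others.

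Levels per length are given as RPKM, reads per kilobase of annotated exon, scaled to library size. They spanned a 537.5-fold range, from 0.123 RPKM for Kcnn4, the intermediate-conductance calcium-activated channel best known from blood and epithelial cells, to 66.2 RPKM for Kcnj10, the Kir4.1 channel through which astrocytes and oligodendrocytes take up potassium. The median was 7.14 RPKM. There were 31 genes at or above 10 RPKM, which made up 83.7% of the summed level, and 11 below 1 RPKM. The 5 genes with the highest levels, Kcnj10, Kcnip2, Kcnj4, Kcnab2 and Kcna1, made up 31.4%. In the order of levels the ranges of all 74 pairs of neighbours overlapped over the 20 mice.

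**Figure D1:**
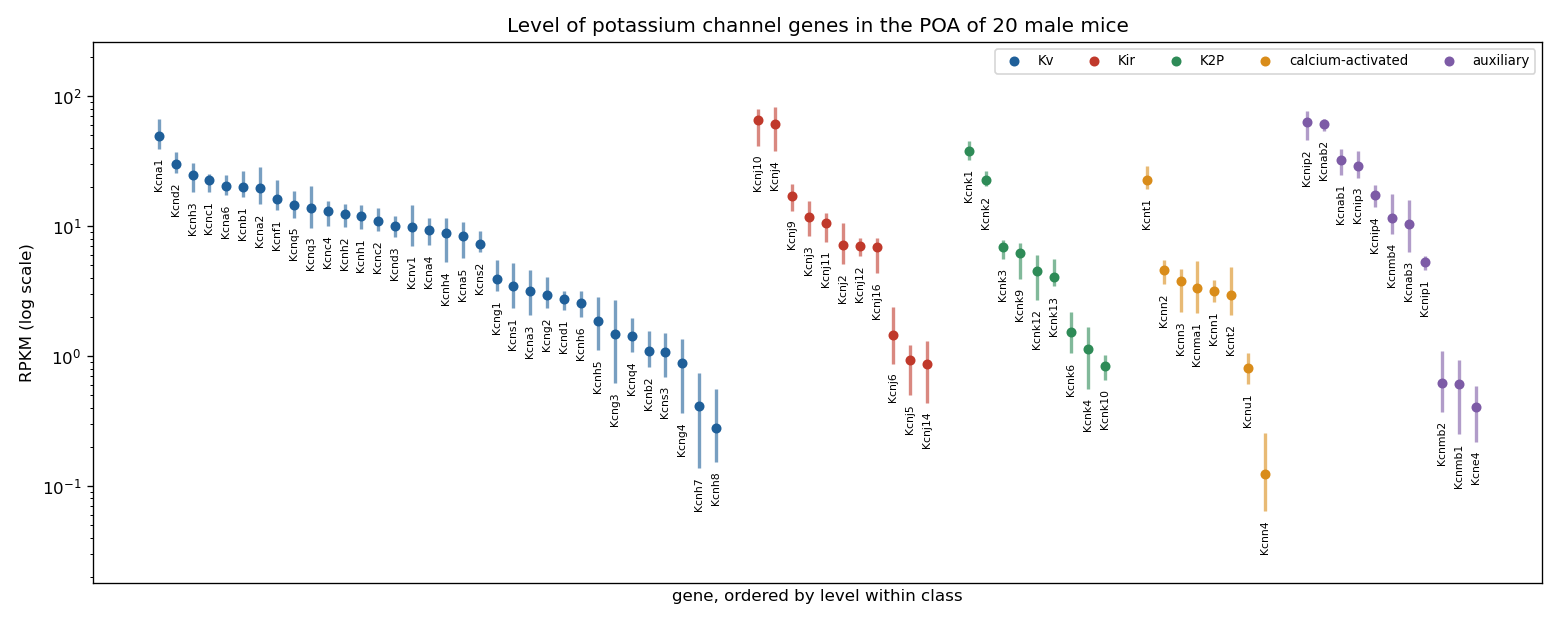
Level of potassium channel genes in RPKM on a log scale, grouped by class and ordered within it, with 2 of the 75 genes not drawn. Points are means over 20 mice and lines run from the lowest to the highest mouse. Kcnj10 and Kcnj4 stand at the head of Kir and Kcnip2 and Kcnab2 at the head of the auxiliary genes, while Kv levels decline gradually from Kcna1.

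Among Kv genes, Kcna1, a Kv1 subunit of axons that sets the spike threshold, had the highest level at 49.5 ± 5.52 RPKM (SD, n = 20). Kcnd2, the Kv4.2 subunit of dendritic A-type current, followed at 30.3 ± 2.81 RPKM. By subfamily the 6 Kv1 genes made up 11.5% of the summed level of all 75 genes, the 4 Kv3 genes of fast-spiking cells 6.73%, the 8 ether-a-go-go (Kcnh) genes 6.57%, the 4 Kv7 (Kcnq) genes 6.24%, the 3 Kv4 genes 4.48% and the 2 Kv2 genes 2.20%. The 9 silent subunits (Kcnf, Kcng, Kcns, Kcnv), which form channels only together with Kv2 subunits, made up 4.93%. Kv held 16 of the 31 genes at or above 10 RPKM.

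Kir levels were uneven. Kcnj10 had 66.2 ± 10.02 RPKM and Kcnj4, the Kir2.3 channel of forebrain neurons, 60.9 ± 10.8 RPKM, and the next gene, the GIRK subunit Kcnj9, had 17.0 ± 2.36 RPKM. Kcnj3, the GIRK subunit that most neuronal GIRK channels share, stood at 11.9 RPKM, while the GIRK genes Kcnj6 and Kcnj5 were at 1.46 and 0.925 RPKM. Among K2P genes, Kcnk1 (TWIK-1) had 37.7 ± 3.13 RPKM and Kcnk2 (TREK-1), a leak channel opened by stretch and lipids, 22.7 ± 1.65 RPKM. These were the K2P genes above 10 RPKM, and Kcnk3 (TASK-1, closed by acid) came next at 6.87 ± 0.567 RPKM.

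The calcium-activated class was led by a sodium-activated relative, Kcnt1 (Slack), at 22.7 ± 2.06 RPKM. The SK genes Kcnn2 and Kcnn3, whose channels give the medium afterhyperpolarization, had 4.603 ± 0.558 and 3.80 ± 0.656 RPKM, and Kcnma1, the large-conductance BK channel, had 3.33 RPKM. Auxiliary genes held places 2 and 4 in the order of levels. Kcnip2, a calcium-binding partner of Kv4 channels, had 63.5 ± 7.62 RPKM, and the Kv1 beta subunits Kcnab2 and Kcnab1 had 60.7 ± 3.60 and 32.3 ± 3.07 RPKM. The 3 measured BK beta subunits (Kcnmb) together made up 1.34% of the summed level.

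Taken per mouse, Kv genes held 42.7% of the summed RPKM, auxiliary genes 24.2%, Kir 19.9%, K2P 8.93% and calcium-activated genes 4.33% (means over 20 mice). The summed level of all 75 genes was 972.6 ± 47.7 RPKM in control SS, 943.3 ± 32.3 in control OS, 976.0 ± 25.1 in dnFGFR SS and 942.5 ± 41.9 in dnFGFR OS mice (SD, n = 5). These sums overlapped among all groups. The Kir share was 20.4 to 21.2% in control SS mice, above the 18.5 to 20.3% of the other 15 mice. The 10 Kir genes other than Kcnj10 took 13.7 to 14.6% of the sum without that gene in control SS mice and 12.03 to 16.3% in the other groups, so the ranges overlapped once Kcnj10 was set aside. With CPM in place of RPKM, the Kir share was 13.95 to 14.6% in control SS mice and also overlapped the other groups, which reached 14.2%. The class shares were not tested.

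Each gene was tested with edgeR's quasi-likelihood test over all genes, and called at an adjusted p below 0.1 (Benjamini-Hochberg). None of the 75 potassium channel genes was called in any of the 5 comparisons. All genes together were called at rates of 0.124% for OS against SS housing in control mice, 0% for housing in dnFGFR mice, 0.2% for dnFGFR against control in SS housing, 0.0531% for dnFGFR against control in OS housing and 0% for the housing by genotype interaction. At an unadjusted p below 0.05, edgeR gave 7, 8, 10, 8 and 5 of the 75 genes in that order, or 9.33, 10.7, 13.3, 10.7 and 6.67%, beside 7.2, 6.72, 8.63, 7.02 and 3.41% of all genes tested. DESeq2 in place of edgeR called 1 of the 75 genes, Kcnj10 for dnFGFR against control in SS housing, and limma voom called 0 in each comparison. The 95% interval of the log2 fold change lay within 0.5 of 0 for 61, 53, 61, 50 and 40 of the 75 genes, and within it for 75.1, 66.1, 75.1, 65.6 and 54.7% of all genes.

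**Figure D2:**
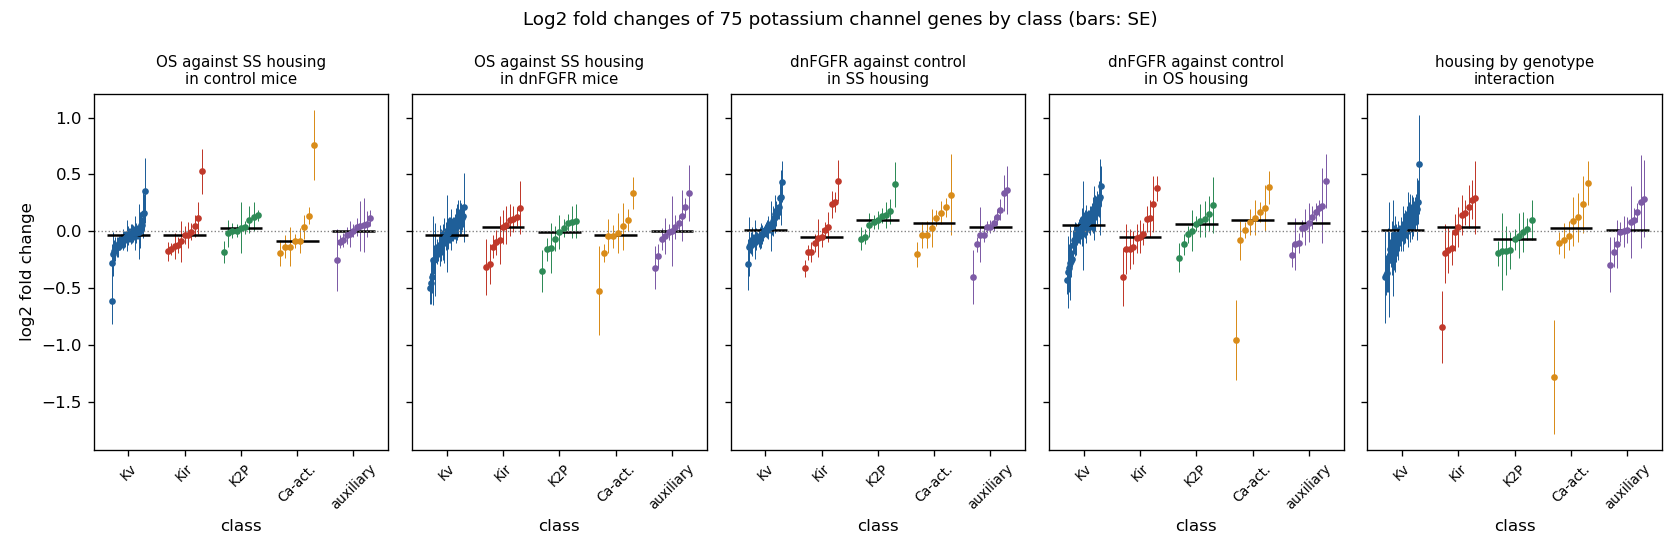
Log2 fold change of each of the 75 genes with its SE, by class, in the 5 comparisons. Black lines are class medians, which lie between -0.08 and 0.10 in the 4 pairwise comparisons and between -0.07 and 0.04 in the interaction.

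OS against SS housing in control mice asks what a female partner and breeding did to channel genes where the GnRH system was intact. Most Kv genes lay slightly lower with OS housing. The log2 fold change was below 0 for 30 of 36 Kv genes, among them all 3 Kv4 genes, with a Kv median of -0.03, and above 0 for 7 of 9 K2P genes, with a median of 0.03. Over all 75 genes, 50 lay lower (66.7%, beside 49.1% of all genes tested) and 25 higher (33.3%, beside 50.9%), with a median of -0.02 beside 0.002. The Kv count moved to 21 when the trend on GC content and length was removed, to 20 on mice of shared sacrifice dates, and to between 21 and 31 when single mice were left out (21 without control SS mouse 1 or control OS mouse 2). The K2P lean rested on 1 mouse, since without control SS mouse 2 only 4 of 9 K2P genes lay higher and their median was -0.004. Genes measured in the same mice do not move independently, and the Kv count has no test. At an unadjusted p below 0.05, 3 of the 75 genes lay higher (3.66% of all genes did) and 4 lower (3.54%).

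Kcnj2, the Kir2.1 channel that steadies the resting potential, gave the smallest p in control mice. Its CPM values were 42.2, 40.5, 43.0, 38.5 and 40.9 in control SS and 38.8, 36.5, 37.1, 34.9 and 36.3 in control OS mice. Control OS mouse 1 reached into the SS range and the other OS mice lay below it. The difference was a log2 fold change of -0.16 (SE 0.0530), with an adjusted p of 0.465 by edgeR. Kcng3, a silent Kv subunit, had 6.07, 5.38, 6.53, 6.88 and 5.45 CPM in SS and 5.77, 2.08, 3.83, 4.97 and 3.24 CPM in OS mice. The OS values were more scattered than the SS values, and control OS mouse 1 lay among the SS mice. Its log2 fold change was -0.61 (SE 0.210, edgeR adjusted p = 0.482).

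In the other direction, Kcnk1 had 84.2, 78.2, 73.3, 78.8 and 72.6 CPM in control SS and 85.6, 89.3, 83.3, 85.5 and 82.4 CPM in control OS mice. The groups overlapped through control SS mouse 1. Its log2 fold change was 0.14 (SE 0.04996, edgeR adjusted p = 0.518). Kcnj14, the Kir2.4 channel, had 1.62 to 2.34 CPM in SS and 1.87 to 3.47 CPM in OS mice. Its difference was 0.53 on the log2 scale (SE 0.199, edgeR adjusted p = 0.546). On mice of shared sacrifice dates the log2 fold changes were -0.19 for Kcnj2, -0.57 for Kcng3, 0.16 for Kcnk1 and 0.57 for Kcnj14, from 2 SS and 5 OS mice. No potassium channel gene had SS and OS ranges that did not overlap in control mice, a pattern shown by 1.63% of all genes tested.

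OS against SS housing in dnFGFR mice is the comparison in which the study looked for effects of a mate on a GnRH-deficient POA. The 75 genes were split between 35 higher (50.9% of all genes) and 40 lower (49.1%), with a median log2 fold change of -0.01 beside 0.004 over all genes. Of the 8 genes at an unadjusted p below 0.05, 6 lay lower (8%, beside 3.77% of all genes) and 2 higher (2.67%, beside 2.95%), and 5 of the 6 lower genes were Kv genes. No gene had SS and OS ranges apart (1.42% of all genes did).

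Kcnh4, an ether-a-go-go channel of the Kv12 group found in forebrain neurons, gave the smallest p. It had 34.5, 45.4, 35.0, 30.8 and 42.3 CPM in dnFGFR SS and 25.9, 31.7, 20.9, 31.0 and 23.1 CPM in dnFGFR OS mice. Every OS mouse but mice 2 and 4 lay below the whole SS range, and the lowest SS mouse lay within the OS range. edgeR gave a log2 fold change of -0.50 (SE 0.136) with an adjusted p of 0.726. DESeq2 on dnFGFR mice alone gave -0.50 with an adjusted p of 0.357. DESeq2 with the 4 groups in 1 object and without dnFGFR OS mouse 5 gave -0.46 with an adjusted p of 0.0872 and called it. Markers of striatal neurons summed to 3717 to 4536 CPM in dnFGFR SS and 2566 to 3865 CPM in dnFGFR OS mice, and their part in the result was not tested.

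Among genes that lay higher, Kcnip4, a Kv4 partner protein, had 62.6, 57.1, 55.4, 69.4 and 60.9 CPM in dnFGFR SS and 69.9, 72.2, 75.9, 61.8 and 73.4 CPM in dnFGFR OS mice. All OS mice but mouse 4 lay above the SS mice. The difference was a log2 fold change of 0.21 (SE 0.0803, edgeR adjusted p = 0.726), and 0.12 after removal of the trend. A non-coding gene that overlaps Kcnip4 had 12.9 CPM on average, beside 63.2 for Kcnip4, and how reads over both were counted is not given in the sources used here. Kcnt2 (Slick), a sodium-activated channel, had 17.0 to 23.2 CPM in SS and 19.8 to 33.2 CPM in OS mice. The highest value was that of dnFGFR OS mouse 5, and the log2 fold change of 0.34 (SE 0.144, edgeR adjusted p = 0.726) became 0.19 without it. On mice of shared sacrifice dates (2 SS and 4 OS), log2 fold changes were -0.59 for Kcnh4, 0.23 for Kcnip4 and 0.43 for Kcnt2.

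**Figure D3:**
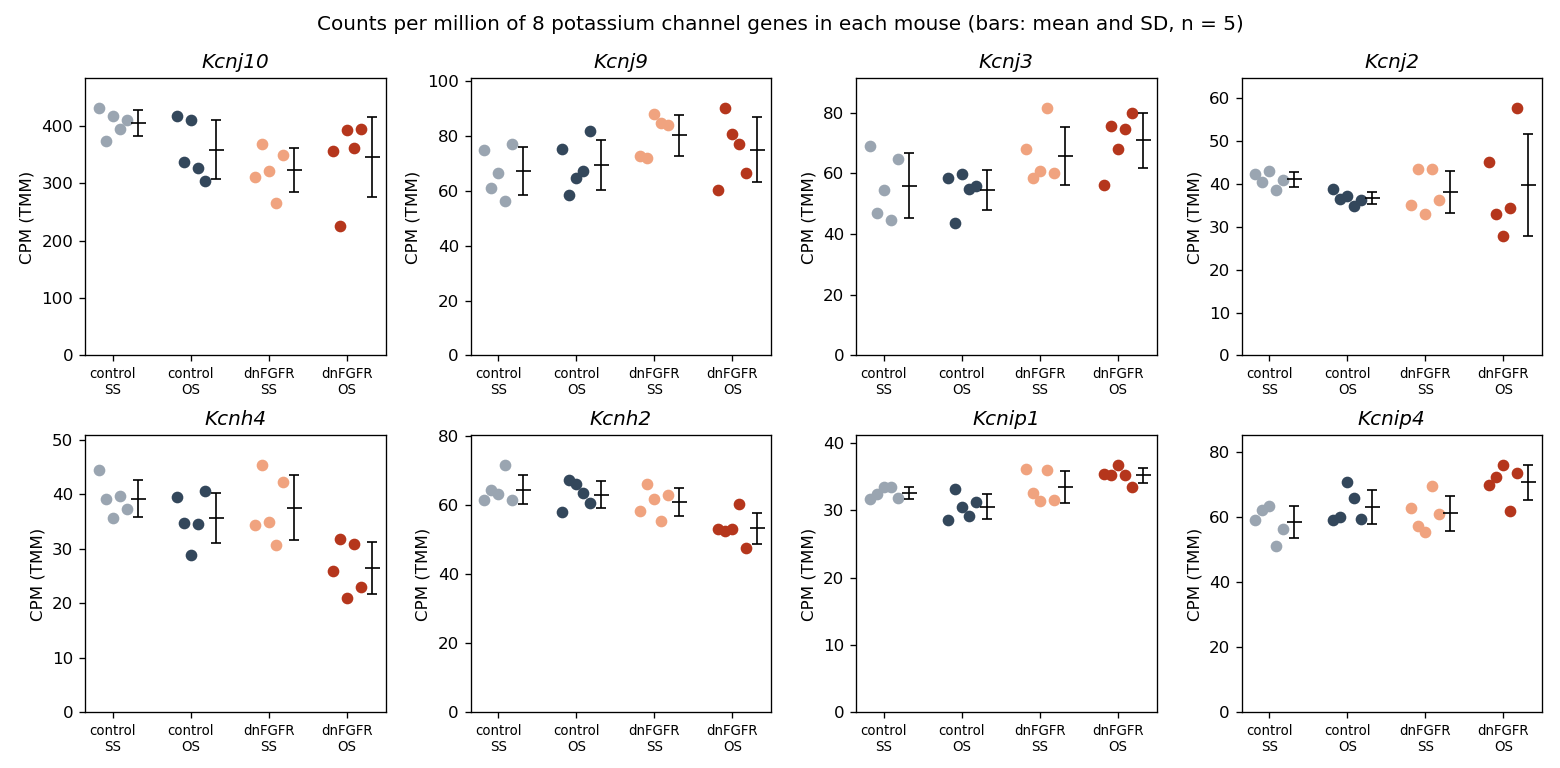
CPM of 8 potassium channel genes in each mouse (points) with the mean and SD of each group (bars, n = 5), each axis starting at 0. Kcnj10 in control SS mice lies above all dnFGFR SS mice, and Kcnip1 in dnFGFR OS mice lies above all control OS mice, while the other groups that differ in housing alone or genotype alone overlap.

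Between genotypes in SS housing, which compares the GnRH-deficient with the intact POA without a mate, the potassium channel gene with the smallest p was Kcnj10. It lies on chromosome 1 from 172341210 to 172374085 (GRCm38, RefSeq), next to Kcnj9 at 172320508 to 172329322. Kcnj10 had 430.8, 373.0, 417.6, 394.6 and 409.6 CPM in control SS and 310.3, 367.4, 320.7, 266.3 and 348.6 CPM in dnFGFR SS mice. The groups did not overlap, which among all genes tested was so for 1.56%, and among the 75 genes for Kcnj10 alone. edgeR gave a log2 fold change of -0.33 (SE 0.0756) with an adjusted p of 0.170, and DESeq2 an adjusted p of 0.00595. In OS housing the gene had 304.1 to 416.5 CPM in control and 225.8 to 393.8 CPM in dnFGFR mice, and the groups overlapped.

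Glial values stand beside Kcnj10 in SS housing. Markers of oligodendrocytes summed to 5530 to 6842 CPM in control SS and 4279 to 6367 CPM in dnFGFR SS mice, and markers of astrocytes to 1037 to 1188 and 971.7 to 1164 CPM. Kcnj16 (Kir5.1), which pairs with Kir4.1 in glia, had 26.6 to 32 CPM in control SS and 19.96 to 28.1 CPM in dnFGFR SS mice. The lowest Kcnj10 and Kcnj16 values of the dnFGFR SS group were both in mouse 4, which was also its lowest for oligodendrocyte markers. Control OS mouse 5 was also lowest of its group for Kcnj10 and oligodendrocyte markers (304.1 and 5813 CPM). So was dnFGFR OS mouse 2 (225.8 and 4339 CPM). Control SS mice ran otherwise. Mouse 1 had the highest Kcnj10 (430.8 CPM) with the lowest sums of both glial lists (5530 and 1037 CPM). Mouse 2 had the lowest Kcnj10 (373.0 CPM) with an oligodendrocyte sum of 6801 CPM. In the marker correlations described below, Kcnj10 had none that passed with either glial list. Whether glial content had a part in the Kcnj10 difference was not tested.

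Kcnj9, its neighbour, leaned the other way, with 74.97, 60.9, 66.6, 56.5 and 77.3 CPM in control SS and 72.7, 71.9, 87.9, 84.7 and 84.1 CPM in dnFGFR SS mice. Mice 1 and 2 of the dnFGFR group lay within the control range and the other 3 above it. The log2 fold change was 0.26 (SE 0.0867, edgeR adjusted p = 0.385). Markers of cortical excitatory neurons summed to 144.8 to 517.9 CPM in control SS and 357.5 to 725.5 CPM in dnFGFR SS mice, and their part in the Kcnj9 values was not tested. Kcnc2, a Kv3 channel of fast-spiking interneurons, had 66.0 to 76.2 CPM in control SS and 74.8 to 87.7 CPM in dnFGFR SS mice, a log2 fold change of 0.17 (SE 0.0583, edgeR adjusted p = 0.394). Markers of neurons summed to 2936 to 3820 CPM in control SS and 3398 to 4164 CPM in dnFGFR SS mice. Their part in the Kcnc2 values was not tested. Kcnj12 (Kir2.2) had 19.7 to 21.1 CPM in control SS mice and 17.6, 17.5, 16.7, 20.1 and 17.0 CPM in dnFGFR SS mice. Only mouse 4 of the dnFGFR group came within the control range. The log2 fold change of Kcnj12 was -0.19 (SE 0.0672, edgeR adjusted p = 0.427).

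Of the 10 genes at an unadjusted p below 0.05 in SS housing, 8 lay higher in dnFGFR mice (10.7%, beside 4.12% of all genes) and 2 lower (2.67%, beside 4.51%). By class, 7 of 9 K2P, 7 of 11 auxiliary, 5 of 8 calcium-activated, 20 of 36 Kv and 5 of 11 Kir genes lay higher, with medians of 0.10, 0.04, 0.07, 0.01 and -0.05. Over the 75 genes 44 lay higher (51.6% of all genes) and 31 lower (48.4%), and the median was 0.03, beside 0.004 over all genes.

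In OS housing, dnFGFR mice were compared with control mice that also lived with a female. Kcnj3, the GIRK1 gene, had 58.6, 43.5, 59.9, 54.9 and 56.0 CPM in control OS and 56.3, 75.5, 68.2, 74.7 and 79.9 CPM in dnFGFR OS mice. Mouse 1 of the dnFGFR group lay among the controls and the others above them. The difference was a log2 fold change of 0.38 (SE 0.109, edgeR adjusted p = 0.576). Markers of neurons summed to 3277 to 3604 CPM in control OS and 3415 to 4013 CPM in dnFGFR OS mice. Markers of cortical excitatory neurons summed to 220.9 to 559.2 CPM in control OS and 286.8 to 746.3 CPM in dnFGFR OS mice. The part of either list was not tested.

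Kcnip1, another Kv4 partner, had 28.6, 33.2, 30.5, 29.1 and 31.2 CPM in control OS and 35.4, 35.2, 36.7, 35.2 and 33.5 CPM in dnFGFR OS mice. The groups did not overlap, which was so for 1.55% of all genes tested and for Kcnip1 alone among the 75 genes. Its log2 fold change was 0.21 (SE 0.0681, edgeR adjusted p = 0.643), and within groups it was the steadiest of the 75 genes, with an SD of 0.0716 on the log2 scale. Kcnmb1, a BK beta subunit at 2.54 CPM, lies inside Kcnip1, which had 32.9 CPM, so some reads could belong to either.

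Lower in dnFGFR OS than in control OS mice were Kcnh4 and Kcnh2 (ERG1, a channel that slowly restrains firing). Kcnh4 had 39.6, 34.7, 28.9, 34.6 and 40.6 CPM in control OS mice, against the dnFGFR OS values given above, a log2 fold change of -0.43 (SE 0.128, edgeR adjusted p = 0.600). Control OS mouse 3 lay within the dnFGFR range. Kcnh2 had 57.9 to 67.2 CPM in control OS and 53.2, 52.5, 53.0, 60.3 and 47.7 CPM in dnFGFR OS mice, with mouse 4 within the control range. Its log2 fold change was -0.24 (SE 0.0742, edgeR adjusted p = 0.600), and -0.10 with the trend on GC content and length removed. Sums of neuron and cortical markers in these groups are given above beside Kcnj3, and their part in the Kcnh2 values was not tested. Both Kcnh4 comparisons use the same dnFGFR OS mice, so they are not separate evidence. Over the 75 genes 47 lay higher in dnFGFR OS mice (62.7%, beside 50% of all genes), and at an unadjusted p below 0.05 there were 5 higher (3.1% of all genes) and 3 lower (3.93%). The median of 0.06 became 0.0003 without dnFGFR OS mouse 5.

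The housing by genotype interaction asks whether the housing difference was larger in one genotype. Kcnn4 had the lowest value, -1.28 (SE 0.4999, edgeR adjusted p = 0.963), from levels of 0.391 to 0.663 CPM in control SS, 0.568 to 1.31 in control OS, 0.357 to 1.02 in dnFGFR SS and 0.326 to 0.730 in dnFGFR OS mice. These are the lowest levels of any member, down to 11 counts in a mouse. Kcnj14, also low, gave -0.85 (SE 0.315, edgeR adjusted p = 0.963). The genes with the smallest p above 0 were Kcnt2 at 0.42 (SE 0.193) and Kcnip1 at 0.16 (SE 0.0830), both with an edgeR adjusted p of 0.963. Interaction values were above 0 for 37 genes (50.1% of all genes) and below 0 for 38 (49.9%), and at an unadjusted p below 0.05 there was 1 above (1.52%) and 4 below (1.89%). Housing effects of the 75 genes had the same sign in the 2 genotypes, measured in different mice, for 39 genes (52%, beside 57.5% of all genes). Genotype effects had the same sign in the 2 housings for 50 genes (66.7%, beside 55.5%). By size the effects of the 75 genes matched less than those of all genes. Pearson's r was -0.10 for housing effects, beside 0.19 over all genes, and 0.14 for genotype effects, beside 0.38. The genes do not move independently, and these counts were not tested.

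Channel groups of known neuroendocrine interest are given by their group means. Among genes of the M-current, which restrains repetitive firing, Kcnq3 had group means of 198.3 to 208.8 CPM and Kcnq5 of 107.5 to 115.7 CPM. Group SDs of Kcnq3 were 14.5 to 57.6 CPM, wider than the span of its means. Kcnj11, the pore of the ATP-sensitive channel, had means of 36.2 to 41.3 CPM, and its regulatory subunit genes are among the partner genes described below. The GIRK genes at low level, Kcnj5 and Kcnj6, had means of 4.13 to 4.601 and 10.4 to 12.3 CPM.

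For SK and BK channels, group means were 13.8 to 15.4 CPM for Kcnn1, 30.6 to 37.9 CPM for Kcnn2, 37.6 to 43.6 CPM for Kcnn3 and 51.2 to 59.0 CPM for Kcnma1. Kcnn2 was lowest in control SS (30.6 ± 2.58 CPM) and highest in dnFGFR OS mice (37.9 ± 3.42 CPM). The A-type group gave 14.02 to 15.4 CPM for Kcnd1, 152.7 to 159.4 CPM for Kcnd2 and 89.6 to 103.3 CPM for Kcnd3. Their partners Kcnip2 and Kcnip3 had 195.8 to 232.6 and 97.1 to 108.5 CPM, and the low Kcnip2 mean was that of dnFGFR OS mice. Leak channels gave 109.7 to 113.9 CPM for Kcnk2, 25.7 to 28.7 CPM for Kcnk3, 73.9 to 79.1 CPM for Kcnk9 (TASK-3) and 7.01 to 7.80 CPM for Kcnk10 (TREK-2). For Kcnj11, Kcnd2 and Kcnk2 the ranges of all 4 groups overlapped.

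Several genes ran with marker sums of cell types, some of them with more than 1 list. Over 20 mice, each of the 75 genes was correlated with the summed CPM of 11 marker lists, 825 correlations in all, with permutation p adjusted over them, and 32 had both Pearson's r and Spearman's rho at an adjusted p below 0.05. Kcnj3 went with markers of neurons (r = 0.92, rho = 0.91, permutation adjusted p = 0.00103 and 0.00275). Its r was 0.90 without the 2 mice farthest from the median, 0.80 within control and 0.98 within dnFGFR mice. Kcnj3 also went with markers of cortical excitatory neurons (r = 0.88, rho = 0.84, permutation adjusted p = 0.00103 and 0.0041). Kcnj9 followed markers of cortical excitatory neurons (r = 0.87, rho = 0.83, permutation adjusted p = 0.00103 and 0.00275), with r = 0.83 without the 2 farthest mice, 0.95 within control and 0.72 within dnFGFR mice. Kcnc2 went with markers of neurons (r = 0.69, rho = 0.67, permutation adjusted p = 0.0170 and 0.0429). Its r was 0.65 without the 2 farthest mice, 0.56 within control and 0.49 within dnFGFR mice. Kcnh2 ran against markers of neurons (r = -0.74, rho = -0.80, permutation adjusted p = 0.00779 and 0.00825) and of cortical excitatory neurons (r = -0.65, rho = -0.71, permutation adjusted p = 0.0312 and 0.0299). Without the 2 farthest mice its r was -0.68 with neurons and -0.48 with cortical neurons. Within control mice these were -0.82 and -0.89, and within dnFGFR mice they were weaker, at -0.51 and -0.26.

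Markers of striatal neurons went with Kcnh4 (r = 0.83, rho = 0.81) and Kcnip2 (r = 0.84, rho = 0.76), with permutation adjusted p of 0.00103 for both r and of 0.00275 and 0.0149 for rho. Without the 2 farthest mice, r was 0.74 for Kcnh4 and 0.72 for Kcnip2. Within genotypes r was 0.59 in control and 0.85 in dnFGFR mice for Kcnh4, and 0.74 and 0.84 for Kcnip2. The lowest striatal sum, 2566 CPM, and the lowest Kcnh4 and Kcnip2 values were all in dnFGFR OS mouse 3. Kcnj4 ran against astrocyte markers (r = -0.88, rho = -0.72, permutation adjusted p = 0.00103 and 0.0248), with r = -0.83 without the 2 farthest mice, -0.56 within control and -0.95 within dnFGFR mice. CPM values of a library share 1 total, so a gene and a list are not measured apart.

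**Figure D4:**
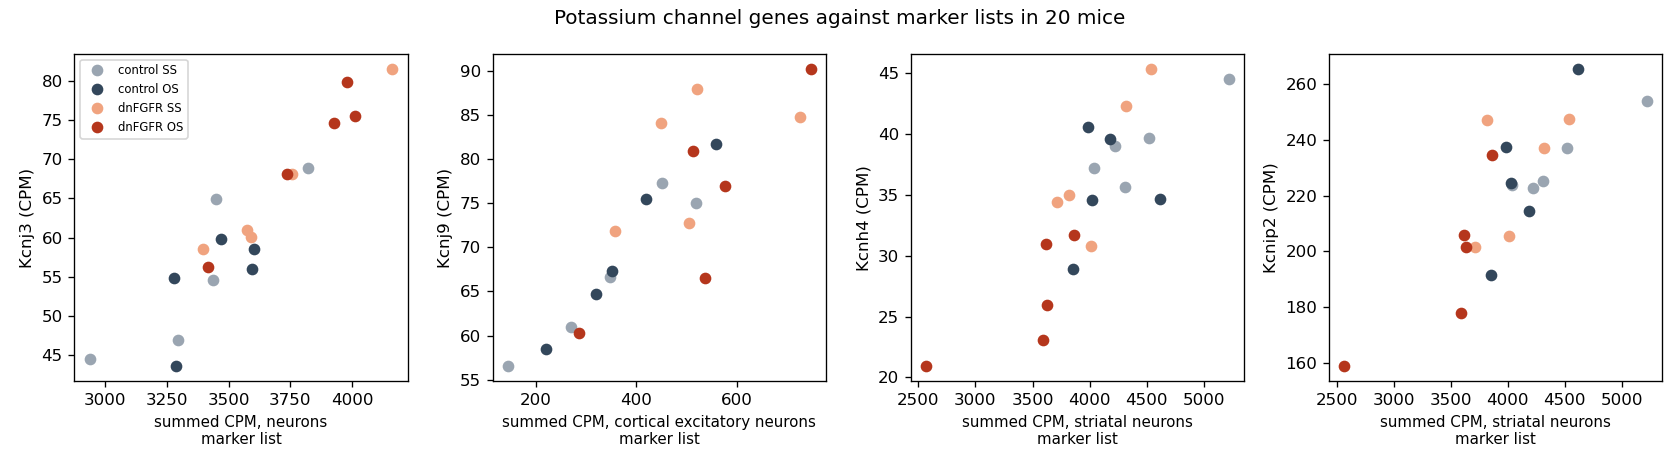
CPM of Kcnj3, Kcnj9, Kcnh4 and Kcnip2 in each of 20 mice against the summed CPM of a marker list, coloured by group; the axes do not start at 0. Each gene is higher in mice with more of the marker RNA, and dnFGFR OS mouse 3 has the lowest striatal sum and the lowest Kcnh4 and Kcnip2.

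Fold changes in dnFGFR mice ran with base composition. GC content of the longest transcript ran from 36.6% in Kcnt2 to 69.4% in Kcnk12 over the 75 genes, with a median of 51.8%. When housings were compared within dnFGFR mice, 30 of the 37 genes above this median lay lower, with a median log2 fold change of -0.13, and 10 of the other 38 did, with a median of 0.04. Spearman's rho of log2 fold change with GC content was -0.61 over the 75 genes and -0.48 over all genes. These are correlations across genes, which are not independent replicates. In control mice the same rho was -0.02 over the 75 genes.

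The trend was strongest in 1 library. Against the mean of the 20 mice, rho of a mouse's deviation with GC content over the 75 genes was -0.64 in dnFGFR OS mouse 5 and lay between -0.37 and 0.48 in the other 19. It was 0.005, 0.20, 0.48, -0.25 and 0.47 in dnFGFR SS mice 1 to 5. In dnFGFR OS mice 1 to 4 it was -0.37, 0.25, -0.24 and -0.0002. Without dnFGFR OS mouse 5, 28 of the 37 genes above the median GC content lay lower with OS housing and 21 of the other 38 did, with medians of -0.08 and -0.02. The rho for housing in dnFGFR mice was then -0.32, and with the trend on GC content and length removed from every mouse it was -0.05. That removal takes out such a trend by design, so a rho near 0 after it is not a separate result. For dnFGFR against control in OS housing rho was -0.43, and -0.12 without dnFGFR OS mouse 5. Kcnh4 and Kcnh2, named above as lower, had GC contents of 60.0 and 61.3%, and Kcnt2 and Kcnip4, named as higher, 36.6 and 40.1%.

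**Figure D5:**
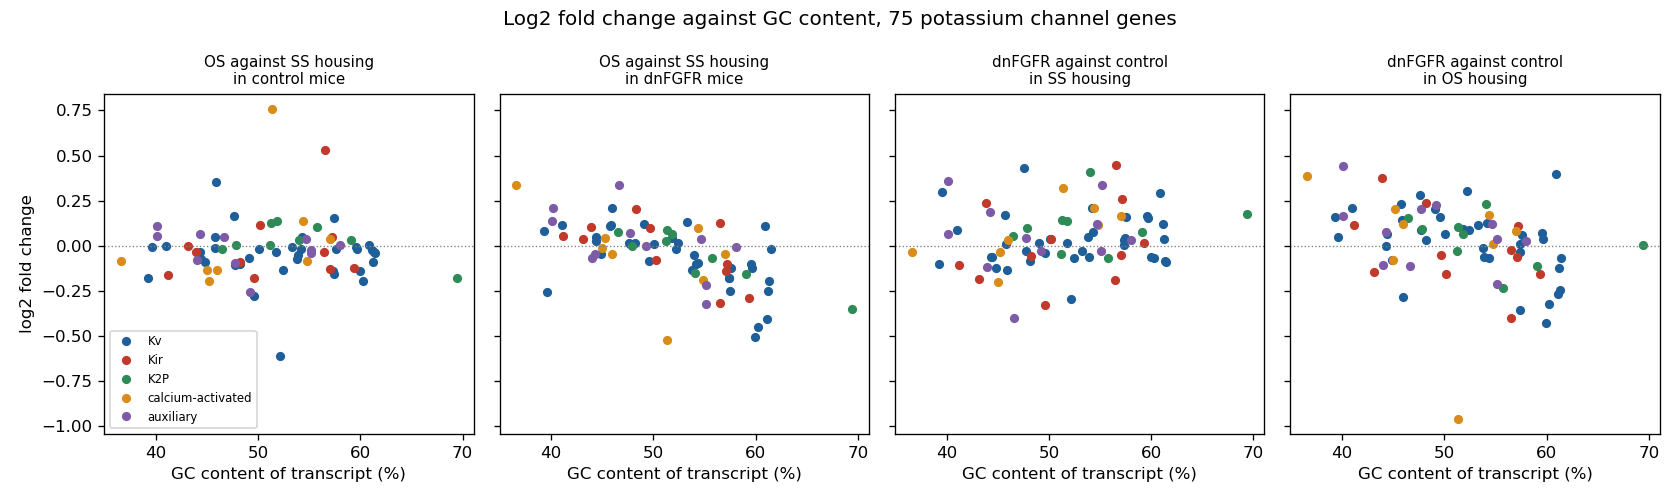
Log2 fold change of the 75 genes against GC content of the longest transcript, coloured by class, in the 4 pairwise comparisons. The points fall from left to right for housing in dnFGFR mice (rho -0.61) and for dnFGFR against control in OS housing (rho -0.43), and not for OS against SS housing in control mice (rho -0.02).

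The within-group SD on the log2 scale had a median of 0.205 over the 75 genes, beside 0.164 over the 15646 genes with at least 10 counts in every mouse, and ran up to 0.615 for Kcnh7, an ERG-type channel at 0.415 RPKM. Kcnh7 had 6.32 CPM and overlaps the protein-coding gene Gca, which had 25.6 CPM, so some reads could belong to either. The median SE of a log2 fold change was 0.0882 for housing in control, 0.137 for housing in dnFGFR, 0.0918 for genotype in SS and 0.139 for genotype in OS mice, so both comparisons that used dnFGFR OS mice were less precise.

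Genes whose products assemble with or anchor potassium channels were also read as a list of 23, among them Dpp6 and Dpp10 of Kv4 complexes, Abcc8 and Abcc9 of ATP-sensitive channels, Amigo1 of Kv2, and Cntnap2, Lgi1 and Ank3 at axonal Kv1 and Kv7 sites. Of these, 22 were tested and edgeR called 0 in each comparison. At an unadjusted p below 0.05, 1 lay lower in SS-housed dnFGFR mice (4.51% of all genes did) and there were 0 in the other 4 comparisons, beside 7.2% of all genes for housing in control mice, 6.72% for housing in dnFGFR mice, 7.02% for genotype in OS mice and 3.41% for the interaction. The lower gene was Abcc9 (log2 fold change -0.26, edgeR adjusted p = 0.339). Markers of blood vessel wall cells, a list that holds Abcc9, summed to 242.4 to 261.7 CPM in control SS mice. In dnFGFR SS mice they summed to 196.4 to 236.5 CPM, and their part was not tested. In control mice 17 of the 22 lay lower with OS housing (49.1% of all genes did) and 5 higher (50.9%), with a median log2 fold change of -0.03 beside 0.002 over all genes. These genes were measured in the same mice and do not move independently. The count was not tested, and it is given from the main fit alone.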

How the data were processed

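Total RNA of the POA block of each mouse was made into NEBNext Ultra libraries and sequenced as paired ends. Alignment was by HISAT2 (genome GRCm38) and counting over RefSeq genes by Rsubread 2.0.1, and the values the authors deposited are raw counts. How reads over 2 genes, on either strand or at several places were counted is not given in the sources used here. Of the 75 genes, 15 overlap another gene of the table. Another 20 columns of the table belong to no sample described and were not used. Of the tools in the submitters' processing notes, DESeq2 1.36.0 was for their own tests.

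Counts were tested here with edgeR 4.0.16 in R 4.3.3 (TMM factors, filterByExpr, glmQLFit and glmQLFTest, Benjamini-Hochberg over all genes, adjusted p below 0.1, the threshold of the study's methods). Each comparison was fitted on its own groups, and the interaction on all 4. All 75 genes passed the filter. CPM uses TMM library sizes, and RPKM divides it by the union of GENCODE M21 exons. GC content is that of the longest GENCODE M21 transcript, and 97.9% of the genes had both. Gene positions are from RefSeq (GRCm38.p6). Marker correlations used 100000 permutations, for which 1e-05 is the smallest p they can give. Alternatives were DESeq2 1.42.0, limma 3.58.1 voom with quality weights, RLE factors, other filters, all groups in 1 fit, removal of each mouse's GC and length trend (spline with 4 df), the replicate number as a block, mice of shared sacrifice dates, an adjusted p below 0.05, and single mice left out. Scripts were tested on simulated data.

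The members and lists were chosen with earlier results of these data known. Named are, per comparison and direction, the 2 genes of smallest p, the 3 with the highest level per class, and fixed channel groups (M-current, GIRK, ATP-sensitive, SK and BK, A-type, leak, glial Kir); Kcnh7, Kcnk12 and Kcnmb1 were added after their values were seen. Of the genes this rule names, 2 are not reported here, though they enter the counts and sums. Replicates are separate mice, and mice of a group differed by more than counting noise in all 40 pairs.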

Additional observations from a re-analysis of the deposited data

Results flagged for a closer look

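Of 164 groups of 5 mice tested for a mouse far from the others, 7 held one, and chance flags about 1 in 20. In control SS mice, mouse 1 had 253.3 CPM of Kcnq3, an M-current gene, above 190.3 to 204.3 in the others, and 17.7 CPM of Kcnn1, an SK channel, above 12.3 to 13.7. Mouse 4 of that group had 71.6 CPM of Kcnh2, above 61.6 to 64.4. In dnFGFR SS mice, mouse 4 had 20.1 CPM of Kcnj12, above 16.7 to 17.6. In dnFGFR OS mice, mouse 2 was low for Kcnj10, the glial Kir4.1 channel, with 225.8 CPM below 356.4 to 393.8, and for Kcnk9, the TASK-3 leak channel, with 48.4 CPM below 80.7 to 91.3. Its oligodendrocyte marker sum of 4339 CPM was also the lowest of its group. Whether tissue content had a part was not tested. Mouse 5 of the same group had 130.4 CPM of Kcnk2, the TREK-1 leak channel, above 102.1 to 110.0 in the others.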

How the results depend on the processing

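The count of 0 called potassium channel genes changed under DESeq2 on the same mice, to 1 for dnFGFR against control in SS housing (Kcnj10), and under DESeq2 with the 4 groups in 1 object and without dnFGFR OS mouse 5, to 1 for housing in dnFGFR mice (Kcnh4, where edgeR without that mouse gave an adjusted p of 0.843). It was 0 under all other alternatives and without any single mouse. The 20 results named for their smallest p gave 432 fold changes under alternatives. Of these, 0 reversed and 2 became called, those of Kcnj10 and Kcnh4, and edgeR's adjusted p of Kcnj10 rose to 0.743 at most. These results were picked as the most extreme of the same data, so a kept sign was nearly fixed by that choice. Genes named for their level or channel group alone are not in this count. With CPM in place of RPKM the class shares were 53.5% (Kv), 13.7% (Kir), 6.09% (K2P), 6.88% (calcium-activated) and 19.9% (auxiliary). Left-out mice moved the median log2 fold change to between -0.06 and -0.0004 for housing in control, -0.05 and 0.008 for housing in dnFGFR, 0.009 and 0.05 for genotype in SS, 0.0003 and 0.08 for genotype in OS mice, and -0.02 and 0.03 for the interaction.

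Replicate numbers did not pair the mice: same-numbered mice deviated with correlations of -0.31 to 0.29, and 2, 1, 0 and 1 of 5 pairs correlated best with their own number. With the replicate number as a block, 0 genes were called in each comparison, and 7, 8, 10, 10 and 3 genes had an unadjusted p below 0.05.

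The counts at an unadjusted p below 0.05 moved with the fit and with single mice. For housing in control mice they were 12 without control OS mouse 3, 11 under limma voom and under the GC and length correction with the block, 4 with all groups in 1 fit and 2 on mice of shared sacrifice dates. For housing in dnFGFR mice they were 5 without dnFGFR OS mouse 1 or 3, 4 without dnFGFR OS mouse 5 or dnFGFR SS mouse 3, and 3 without dnFGFR SS mouse 2 or 5, and 2 with the trend on GC content and length removed (3 with the block too, and 3 on mice of shared sacrifice dates). For genotype in SS mice they were 18 without control SS mouse 1, 5 without control SS mouse 2 or dnFGFR SS mouse 3, 6 without control SS mouse 4, and 5 with all groups in 1 fit. For genotype in OS mice the count was 5 without control OS mouse 2, and for the interaction it ran from 2 to 10 without single mice (10 without dnFGFR OS mouse 2), and was 12 under limma voom, 3 with the GC and length trend removed and 2 with the block as well. The cause was not tested.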
